A study of Mus musculus with 18 samples.

Results

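The contractile and basal genes of mammary myoepithelium were followed on 18 arrays of primary mouse mammary tumours. The 9 genes are Acta2, Tagln, Myh11, Cnn1, Mylk and Actg2, which encode parts of the smooth muscle contractile apparatus, the transcription factor genes Snai2 and Trp63, and the oxytocin receptor gene Oxtr. They were taken by platform gene symbol, which found 10 of 22575 array features. Mylk had 2 features and the other genes 1 each, and all 9 were among the 16887 genes tested.

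The labels put tumour RNA on each array in Cy5, beside a common reference of whole-mouse RNA in Cy3. The groups are Wnt1 (6 arrays) and Wnt1 together with iFGFR1, iFGFR2 or iR2 (4 arrays each, called iFGFR1, iFGFR2 and iR2). All titles carry FVB, an inbred mouse strain, and MMTV, the viral promoter that directs a transgene to mammary epithelium, and every group, the controls included, carries Wnt1. The labels do not expand iFGFR1, iFGFR2 or iR2, and give no age, agent or time. No label says that arrays of a group come from separate animals, so a p-value measures the spread between these arrays, which may be technical. Replicate numbers follow accession order and pair nothing.

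Myoepithelial cells form the outer, basal layer of mammary ducts and alveoli and contract when oxytocin binds its receptor, which ejects milk. Their contraction uses smooth muscle actins and myosin, switched on by myosin light chain kinase and restrained by calponin, and many genes of this apparatus are controlled by serum response factor with its myocardin-family partners. Trp63 (p63) and Snai2 (Slug) are transcription factors of the basal layer and of mammary stem and progenitor cells. The contractile genes are also made by vascular smooth muscle, pericytes and myofibroblasts, which any tumour sample can hold.

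All levels below are log2 ratios of tumour to whole-mouse RNA. A value of 0 is the level of the reference, which contains the smooth muscle of the whole animal, and the levels of different genes are not compared. A difference between groups is a difference of mean log2 ratios with its standard error (SE). Adjusted p-values are from limma over all 16887 genes, with Benjamini-Hochberg adjustment, and a gene is said to rise or fall where this p is under 0.05. In such bulk samples, fewer cells of a type and less RNA per cell cannot be told apart.

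In the F test over the 4 groups, 4 of the 9 genes passed, against 19.6% of all genes. They were Tagln (adjusted p = 0.000707), Snai2 (0.00489), Acta2 (0.0113) and Actg2 (0.0132). Oxtr (0.0766), Cnn1 (0.133), Trp63 (0.334), Myh11 (0.415) and Mylk (0.787) did not pass. The genes did not move as a block. In the mean of the receptor groups the actin genes were higher than in Wnt1 and Tagln and Snai2 lower. The median difference of the 9 genes was -0.16 in iFGFR1, 0.23 in iFGFR2 and -0.26 in iR2, beside 0.02, 0.01 and -0.05 over all genes.

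**Figure D1:**
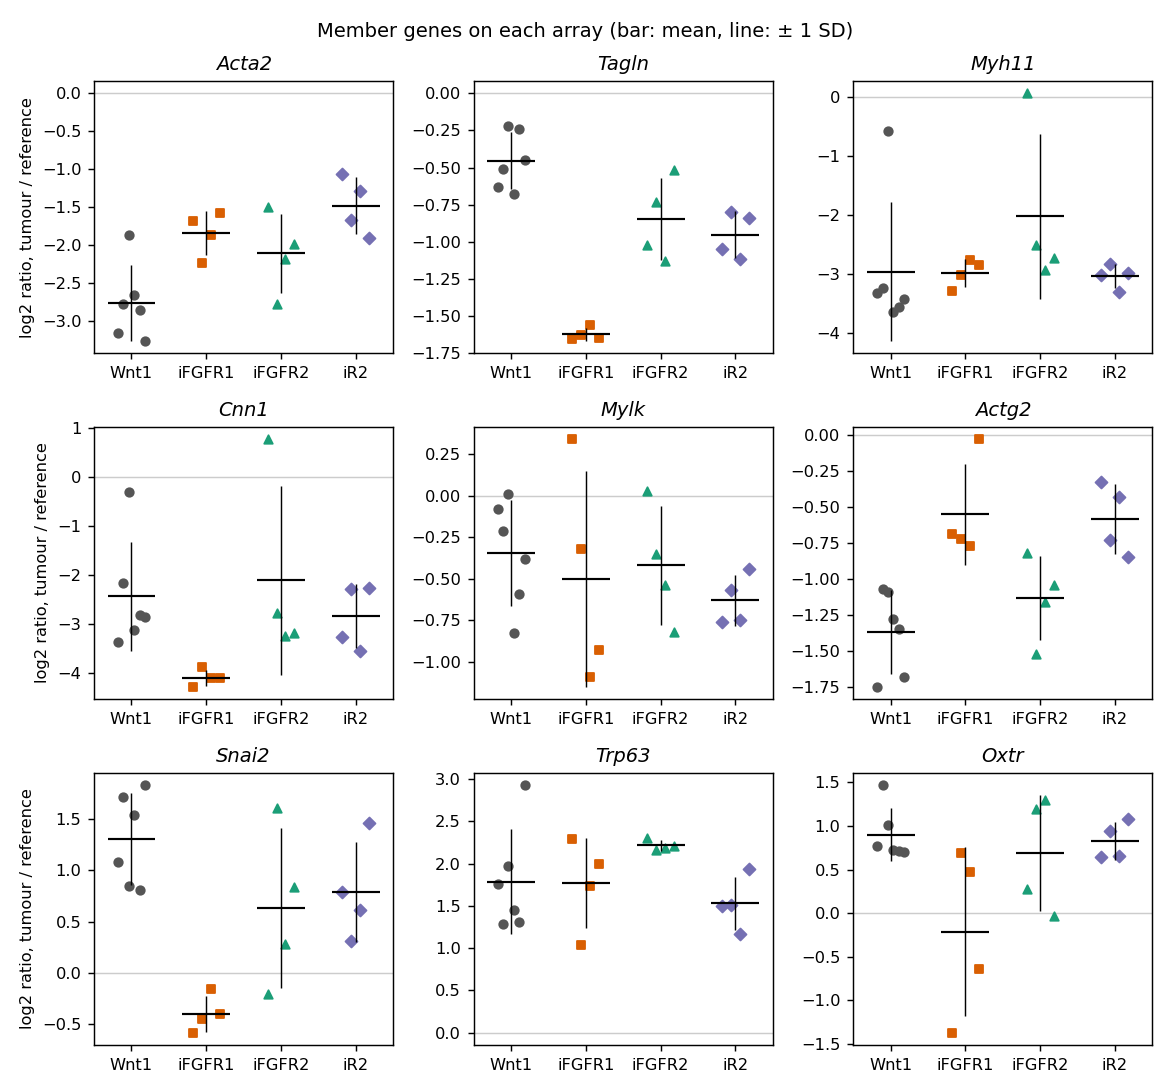
Log2 ratio of tumour to reference RNA for each of the 9 genes on each of the 18 arrays, by group, with the group mean as a bar and 1 SD on each side as a line; each panel has its own axis. Tagln and Snai2 are lowest in iFGFR1, Acta2 and Actg2 lie higher in iFGFR1 and iR2 than in Wnt1, and Myh11 and Cnn1 each have 1 high array in Wnt1 and 1 in iFGFR2.

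Acta2, the gene of smooth muscle alpha-actin, was higher in iFGFR1 and iR2 than in Wnt1. On the Wnt1 arrays it ran from -3.26 to -1.86 with a median of -2.81. The iFGFR1 arrays read -1.68, -2.24, -1.86 and -1.57, and the iR2 arrays -1.06, -1.67, -1.28 and -1.90. The iFGFR2 arrays read -1.50, -2.77, -2.18 and -1.98. Every array was thus below the whole-mouse reference, and Wnt1 overlapped each receptor group, iFGFR1 and iR2 only through its array at -1.86. Acta2 rose by 1.28 in iR2 (SE 0.27, 2.43-fold, adjusted p = 0.00962) and by 0.92 in iFGFR1 (SE 0.27, 1.90-fold, adjusted p = 0.026). In iFGFR2 the difference was 0.65 (SE 0.27, adjusted p = 0.168). From lowest to highest the order of the group means was Wnt1, iFGFR2, iFGFR1 and iR2, and no pair of receptor groups passed the test (iR2 against iFGFR2 0.63, adjusted p = 0.313). The iFGFR1 call ended without any 1 of 5 arrays (Wnt1 replicates 1 and 6, iFGFR1 replicates 1, 3 and 4), where the difference stayed between 0.82 and 1.10 over all single omissions and the highest adjusted p was 0.072. The iR2 call ended without iR2 replicate 1 and when the model held the number that each title carries, which is highest in the iR2 titles (1.82, SE 0.58, adjusted p = 0.157). Without Wnt1 replicate 3, the highest Wnt1 array, the iFGFR2 difference was 0.83 and passed (SE 0.24, adjusted p = 0.0398). Leaving out the highest Wnt1 array widens this difference by itself, so this is no test of it.

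The sequence before the Acta2 start site is shown because the element through which serum response factor acts on smooth muscle genes, the CArG box, lies in it. It is from RefSeq on GRCm38.p6, chr19:34255374-34255623, minus strand, and the capitals mark matches to the CArG box.
Acta2: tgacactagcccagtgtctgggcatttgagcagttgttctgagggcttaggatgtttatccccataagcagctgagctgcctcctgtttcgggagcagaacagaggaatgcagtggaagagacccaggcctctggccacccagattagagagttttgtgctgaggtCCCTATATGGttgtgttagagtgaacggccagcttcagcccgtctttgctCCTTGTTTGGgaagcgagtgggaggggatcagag
The search took CC, then 6 bases of which at most 1 was neither A nor T, then GG, on both strands. It found 2 matches, starting at positions -84 and -34 from the start site of the table, and each has 1 base in its core that is neither A nor T. Such a match is present in 8.59% of the 32851 windows of 250 bases before a start site, and a match with A and T alone in 1.47%. Windows were at hand for 4 of the 9 genes, and those of Cnn1, Mylk and Oxtr held no CArG match. The Mylk and Oxtr windows lie wholly inside the recorded spans of those genes, and the Acta2 and Cnn1 windows partly. The recorded span of Acta2 ends at 34255585, inside its window. Each of the 4 windows thus precedes an internal start site, and other start sites of these genes were not searched. A match is a description of the letters and not evidence of binding.

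Actg2 encodes smooth muscle gamma-actin, the close relative of Acta2. It stood between -1.75 and -1.07 on the Wnt1 arrays with a median of -1.32. In iFGFR1 the arrays read -0.69, -0.72, -0.77 and -0.03, and in iR2 -0.33, -0.73, -0.43 and -0.85. All 8 arrays of these groups lay above every Wnt1 array. The rise was 0.82 in iFGFR1 (SE 0.20, 1.76-fold, adjusted p = 0.0103) and 0.79 in iR2 (SE 0.20, 1.72-fold, adjusted p = 0.0243). The iFGFR2 arrays read -0.82, -1.52, -1.16 and -1.04 and overlapped Wnt1, with a difference of 0.23 (SE 0.20, adjusted p = 0.545). Between iFGFR1 and iR2 the difference was -0.03 (95% interval -0.50 to 0.43). The iR2 call ended without Wnt1 replicate 6 or iR2 replicate 1, 2 or 3, while the difference stayed between 0.70 and 0.87, and with the title number as a covariate (0.84, SE 0.45, adjusted p = 0.401).

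The actin genes varied together from array to array. With each gene centred on its group means, Acta2 and Actg2 had Pearson r = 0.813 and Spearman rho = 0.868 over the 18 arrays (permutation p within groups 0.00028 and 0.00017, adjusted over the 36 pairs of the 9 genes 0.009 and 0.00612). Without the 2 arrays farthest from the Acta2 median, r was 0.806, with the group means still those of all arrays. The encoded proteins are nearly identical, and whether each feature reads only its own transcript was not tested. Over the 18 arrays and without centring the actin genes had r = 0.883, and other genes tracked each of them more closely. Capza1, which encodes a capping protein of actin filaments, had r = 0.971 with Acta2 over the 18 arrays (0.925 after centring), followed by Tmx2 (0.93) and Cct4 (0.926), a subunit of the chaperonin that folds actin. Actg2 was matched most closely by Idh3a (0.957), a subunit of a mitochondrial dehydrogenase, then Rbm34 (0.913) and Ccz1 (0.908). These genes were picked as the closest of all genes measured, so their r carries no test.

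Tagln, which encodes the actin-binding protein transgelin, fell most clearly in iFGFR1. The iFGFR1 arrays read -1.66, -1.63, -1.56 and -1.65 (SD 0.05), against -0.68 to -0.22 on the Wnt1 arrays with a median of -0.48. The groups did not overlap, and Tagln fell by 1.17 (SE 0.16, 2.25-fold lower, adjusted p = 0.000104). The iR2 arrays read -1.05, -0.80, -1.12 and -0.84, all below every Wnt1 array, but the difference of -0.50 did not pass (SE 0.16, adjusted p = 0.067). In iFGFR2 the arrays read -1.02, -0.73, -1.13 and -0.52, with 3 of 4 below every Wnt1 array and a difference of -0.40 (SE 0.16, adjusted p = 0.164). The order from highest to lowest was Wnt1, iFGFR2, iR2 and iFGFR1. The neighbours iFGFR2 and iR2 differed by -0.10 (95% interval -0.47 to 0.27), and Tagln was higher than in iFGFR1 by 0.78 in iFGFR2 (SE 0.18, adjusted p = 0.025) and by 0.67 in iR2 (SE 0.18, adjusted p = 0.0177). The call for iFGFR2 against iFGFR1 ended without iFGFR1 replicate 1, 3 or 4 or iFGFR2 replicate 4 (0.67 to 0.87 over all single omissions), and that for iR2 against iFGFR1 without iR2 replicate 2 or 4 (0.62 to 0.73). With each array scaled to 1 median absolute deviation neither passed (1.01 and 0.45, adjusted p = 0.0765 and 0.247), nor with the genes of low spread left out (adjusted p = 0.0776 and 0.0564). The first also missed the threshold with array weights (0.0913) and with only the arrays compared (0.246), and the second with the title number in the model (0.57, adjusted p = 0.29). The difference of iR2 from Wnt1 passed with array weights (-0.52, SE 0.12, adjusted p = 0.00325), with each array scaled to 1 median absolute deviation (adjusted p = 0.00699) and with only the arrays compared (adjusted p = 0.0403). Among the 16887 genes the spread of Tagln within groups was at the 2.46 percentile. The genes closest to Tagln over the 18 arrays were Rbms3 (r = 0.915), Sobp (0.913) and Maob (0.907), and after centring on group means their r was 0.287, 0.287 and 0.371.

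Within an array, the mean of Acta2 and Actg2 minus Tagln was -1.61 ± 0.33 (SD, n = 6) in Wnt1, from -2.02 to -1.26. It was 0.43 ± 0.31 in iFGFR1 (n = 4), from 0.16 to 0.85, and -0.08 ± 0.45 in iR2 (n = 4), from -0.54 to 0.35. In iFGFR2 it was -0.77 ± 0.55 (n = 4), from -1.42 to -0.14, and overlapped Wnt1. This combination was chosen after its values were seen and has no test.

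Myh11, the smooth muscle myosin heavy chain gene, and Cnn1, the calponin gene, were set apart by 2 arrays. Myh11 read -0.58 on Wnt1 replicate 3 and 0.06 on iFGFR2 replicate 1, while the other 16 arrays lay between -3.64 and -2.51. Cnn1 read -0.31 and 0.77 on these arrays and -4.29 to -2.17 elsewhere. Their spread within groups was at the 98.8 and 99.5 percentiles of all genes. On the same 2 arrays Egfl6, a gene of a secreted EGF-repeat protein, read -0.77 and 0.62 against -4.07 to -2.96 on the others, and it was the closest gene to both (r = 0.91 with Myh11, 0.921 with Cnn1). Car5b (0.868) and Cdhr1 (0.855) followed for Myh11. For Cnn1 they were Igh (0.876) and Tgfb1i1 (0.851), the gene of a focal adhesion protein of smooth muscle. After centring, Myh11 and Cnn1 had r = 0.936 and rho = 0.813 (permutation p 0.0005 and 0.00051, adjusted 0.009 and 0.00918). Without those 2 arrays r was 0.78, but the group means used for centring still included them. This r therefore cannot show whether the relation rested on them.

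Markers of other cell types did not stand out alike on both arrays. The mean of the 10 fibroblast markers was -1.32 on Wnt1 replicate 3, above the other Wnt1 arrays (-2.78 to -2.33), and -3.09 on iFGFR2 replicate 1, inside its group's range of -3.20 to -2.76. For the 11 markers of vascular smooth muscle and pericytes it was -0.66 on Wnt1 replicate 3, inside its group's range of -0.96 to -0.59, and -0.68 on iFGFR2 replicate 1, the highest of its group (the others -0.93 to -0.80). The 7 endothelial markers stood at -0.37 on Wnt1 replicate 3, above the other Wnt1 arrays (-1.49 to -0.95), and at -1.09 on iFGFR2 replicate 1, inside its group's range of -1.22 to -0.78. The means of the 10 luminal markers (2.86) and the 6 adipocyte markers (-2.70) were also the highest of the Wnt1 arrays on replicate 3, where the others reached 2.39 and -3.01. A ratio to a reference has no 0 level, so no marker can be called absent here. The part of these cells in the high values was not tested.

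With all arrays, neither gene passed in any comparison. Cnn1 read -4.29, -3.89, -4.12 and -4.12 in iFGFR1, below every Wnt1 array, and differed from Wnt1 by -1.66 (SE 0.64, 95% interval -2.99 to -0.32, adjusted p = 0.086). This difference passed with only the arrays compared (adjusted p = 0.0358), with the genes of low spread left out (0.0453) and without iFGFR2 replicate 1 (0.0133). It lay below every array of iFGFR2 and of iR2 as well, with differences of 1.98 (SE 0.70, adjusted p = 0.156) and 1.25 (SE 0.70, adjusted p = 0.27) for those groups against iFGFR1. Myh11 differed from Wnt1 by -0.02 in iFGFR1 (SE 0.54), 0.93 in iFGFR2 (SE 0.54, adjusted p = 0.332) and -0.07 in iR2 (SE 0.54). Without Wnt1 replicate 3 the iFGFR2 difference was 1.41 and passed (adjusted p = 0.0377), with the high iFGFR2 array still in the fit. Without the 2 high arrays the Wnt1 mean was -3.43 ± 0.17 (n = 5) for Myh11 and -2.87 ± 0.45 (n = 5) for Cnn1, and the Cnn1 difference in iFGFR1 was -1.23 (SE 0.27). Myh11 was then higher than Wnt1 by 0.45 in iFGFR1, 0.71 in iFGFR2 and 0.40 in iR2, with the sign turned in iFGFR1 and iR2. Those arrays were chosen by these genes' own values, so the differences found without either or both of them are a description with no test.

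Mylk, the gene of myosin light chain kinase, did not pass in any comparison. Averaged over its 2 features it ran from -0.83 to 0.01 in Wnt1 (median -0.29). The iFGFR1 arrays read 0.34, -0.32, -1.09 and -0.93, the iFGFR2 arrays 0.03, -0.35, -0.54 and -0.82, and the iR2 arrays -0.76, -0.57, -0.75 and -0.44. All groups overlapped, and the difference from Wnt1 was -0.16, -0.07 and -0.28 in iFGFR1, iFGFR2 and iR2 (SE 0.25 each). The features disagreed with each other, with r = -0.0629 over the arrays. The feature annotated with AF314149 had a median of -1.07 in Wnt1 and the one annotated with AK044527 a median of 0.25. On iFGFR1 replicate 4 they read -2.94 and 1.07. Fitted alone, neither passed in any group against Wnt1 (adjusted p = 0.603 to 0.984). The genes nearest to the Mylk mean were Trank1 (r = 0.849), Sh3rf3 (0.844) and Olfr1109 (0.82).

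**Figure D2:**
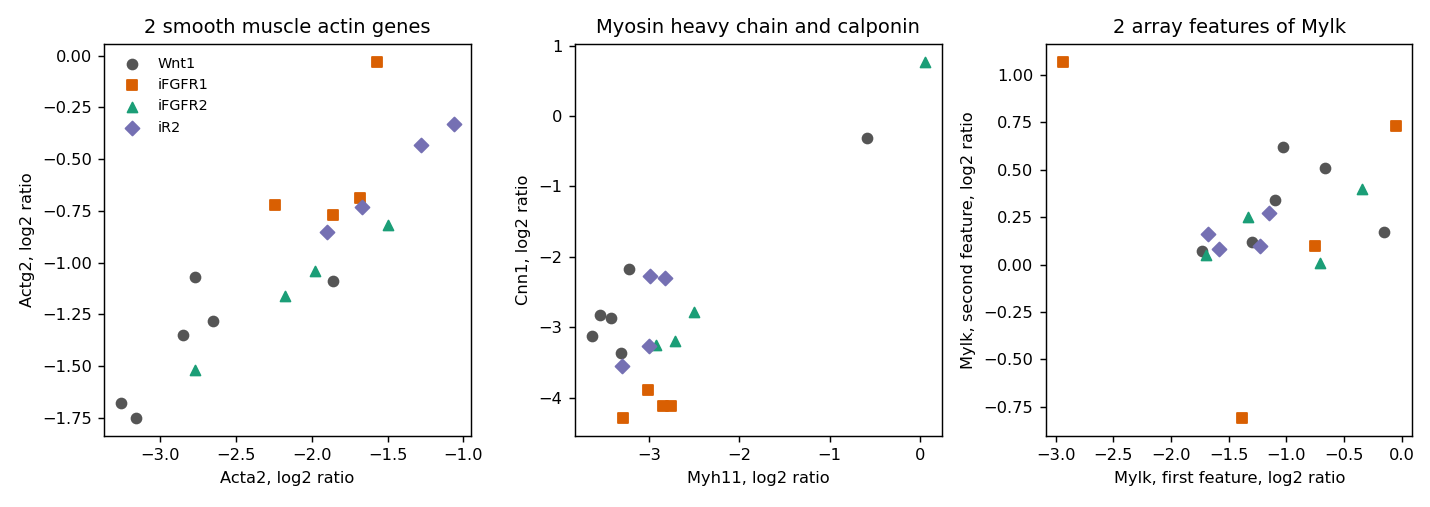
Log2 ratios of 18 arrays, 1 point each, for Acta2 against Actg2 (left), Myh11 against Cnn1 (middle) and the AF314149 feature of Mylk against its AK044527 feature (right), with marks by group. The actins rise together, Wnt1 replicate 3 and iFGFR2 replicate 1 stand apart for Myh11 and Cnn1, and the Mylk features show no common trend (r = -0.0629).

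Among the basal factors, Snai2, a repressor of the Snail family, fell in iFGFR1. On the Wnt1 arrays it ran from 0.81 to 1.83 with a median of 1.31. The iFGFR1 arrays read -0.58, -0.45, -0.16 and -0.40, so that Snai2 was above the whole-mouse reference on every Wnt1 array and below it on every iFGFR1 array. It fell by 1.70 (SE 0.30, 3.26-fold lower, adjusted p = 0.000939). The iFGFR2 arrays were spread from -0.20 to 1.61 (-0.20, 1.61, 0.28 and 0.84) and the iR2 arrays read 0.79, 0.31, 0.61 and 1.46. The differences from Wnt1 were -0.67 (SE 0.30, adjusted p = 0.207) and -0.51 (SE 0.30, adjusted p = 0.323). Snai2 was higher in iR2 than in iFGFR1 by 1.19 (SE 0.33, 4 of 4 arrays above, adjusted p = 0.0234), and in iFGFR2 by 1.03 (SE 0.33, 3 of 4 above, adjusted p = 0.112). The iR2 call ended without iFGFR1 replicate 1 or iR2 replicate 1 or 4 (0.97 to 1.35 over all single omissions) and with the title number in the model (adjusted p = 0.368). The iFGFR2 difference from Wnt1 passed without iFGFR2 replicate 2, its highest array (-0.99, SE 0.28, adjusted p = 0.037), and that from iFGFR1 without iFGFR2 replicate 1, its lowest (1.31, SE 0.32, adjusted p = 0.0416). Leaving out such an array widens the difference by itself, so neither result is a test. The genes closest to Snai2 were Tpcn1 (r = 0.928), Rasa3 (0.907) and Trpv4 (0.898).

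Trp63, which specifies the basal layer, was above the reference on all 18 arrays and did not follow Snai2. It ran from 1.29 to 2.93 in Wnt1 (median 1.60). The iFGFR1 arrays read 2.29, 1.04, 1.74 and 1.99, the iFGFR2 arrays 2.30, 2.16, 2.19 and 2.21, and the iR2 arrays 1.5, 1.51, 1.17 and 1.94. Differences from Wnt1 were -0.02 (95% interval -0.61 to 0.57), 0.43 (-0.16 to 1.03) and -0.26 (-0.85 to 0.34), and none passed. All 4 iR2 arrays lay below all 4 iFGFR2 arrays, with a difference of -0.69 that did not pass (SE 0.31, adjusted p = 0.286). Clcf1 (r = 0.899), Plch2 (0.817) and Nenf (0.801) were closest to it.

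Oxtr, the receptor through which oxytocin triggers myoepithelial contraction, was lower in iFGFR1 and widely spread there. The Wnt1 arrays ran from 0.70 to 1.47 (median 0.75), while the iFGFR1 arrays read -1.37, 0.69, 0.47 and -0.64. All 4 lay below every Wnt1 array, the closest at 0.69 beside the lowest Wnt1 value of 0.70. Oxtr fell by 1.11 (SE 0.34, 2.16-fold lower, adjusted p = 0.0312). This call ended with array weights, with only the arrays compared, and without Wnt1 replicate 2 or iFGFR1 replicate 1 or 4, where the difference was as small as -0.73 and the highest adjusted p 0.142. The iFGFR2 arrays read 0.28, 1.2, 1.3 and -0.03 and the iR2 arrays 0.64, 0.94, 0.66 and 1.08, with differences of -0.21 and -0.07 (SE 0.34 each). Against iFGFR1 the iR2 group was higher by 1.04 (SE 0.37, adjusted p = 0.0733), which passed without iFGFR1 replicate 2 or 3 (1.34 and 1.27, adjusted p = 0.0225 and 0.0462). Those are the highest iFGFR1 arrays, and leaving out either widens the difference by itself, so this is no test. Catsperg2 (r = 0.885), Olfr1129 (0.87) and Olfr1086 (0.864) were the genes closest to Oxtr. On iFGFR1 replicates 1 to 4 Olfr1129 read -1.86, 0.53, 0.21 and -1.09, and Olfr1086 -1.39, 0.36, 0.71 and -1.1. Catsperg2 read -1.08, 0.06, 0 and -0.75 there. All were thus low on replicates 1 and 4, the iFGFR1 arrays where Oxtr was lowest. Whether the Oxtr fall is particular to Oxtr or a trait of these arrays was not tested.

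The window before the Oxtr start site is shown because it holds the element CAGGTG, the core of the sequence that Snail-family repressors are known to recognise. The search covered both strands, and the capitals mark the match, read as CACCTG on this strand at position -71. The window is RefSeq sequence on GRCm38.p6, chr6:112489826-112490075, minus strand. It lies inside the recorded span of the gene (112473683 to 112491035), so it precedes an internal start site.
Oxtr: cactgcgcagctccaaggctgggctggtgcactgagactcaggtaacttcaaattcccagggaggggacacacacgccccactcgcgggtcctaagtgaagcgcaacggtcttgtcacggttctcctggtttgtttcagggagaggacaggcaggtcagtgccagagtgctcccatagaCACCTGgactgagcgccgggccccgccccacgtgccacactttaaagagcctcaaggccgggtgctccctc
The element is present in 17.2% of all windows and was found in none of those of Acta2, Cnn1 and Mylk. The match says nothing of binding.

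Counted by comparison, 5 of the 9 genes passed in iFGFR1 against Wnt1, where 15.4% of all genes did. Acta2 and Actg2 rose (8.38% of all genes rose) and Tagln, Snai2 and Oxtr fell (7.06% fell). Groups did not overlap for Actg2 above Wnt1 (4.88% of all genes) and for Tagln, Cnn1, Snai2 and Oxtr below it (4.61%). In iR2 against Wnt1, 2 of 9 passed, both higher, where 7.1% of all genes passed and 3.91% rose. Groups there did not overlap for Actg2 above Wnt1 (6.24% of all genes) and Tagln below it (7.35%). In iFGFR2 against Wnt1, 0 of 9 passed by limma, where 3.43% of all genes did. Acta2, Tagln and Snai2 had an unadjusted limma p under 0.05 there, a threshold for which the share of all genes was not counted. In iFGFR2 against iFGFR1, 1 of 9 passed and was higher (2.13% of all genes passed and 1.21% were higher). Groups did not overlap for Tagln and Cnn1 above iFGFR1 (3.36%) and Actg2 below it (2.81%). In iR2 against iFGFR1, 2 of 9 passed, both higher (11.7% of all genes passed and 4.81% were higher), and groups did not overlap for Tagln, Cnn1 and Snai2 above it (9.21%). Between iR2 and iFGFR2, 0 of 9 passed by limma (1.34%). Acta2, Actg2 and Trp63 had an unadjusted limma p under 0.05, again without a counted share of all genes. Trp63 alone did not overlap, below iFGFR2 (8.68%). The comparisons with Wnt1 share their control arrays. With the mean of the 3 receptor groups set against Wnt1, Acta2 (0.95, SE 0.21) and Actg2 (0.61, SE 0.16) rose and Tagln (-0.69, SE 0.13) and Snai2 (-0.96, SE 0.23) fell, 4 of 9 where 12.5% of all genes passed, 6.9% higher and 5.62% lower. Without the 2 arrays of high Myh11 and Cnn1, and with these genes themselves not counted because they chose the arrays, Acta2, Tagln, Actg2, Snai2 and Oxtr passed in iFGFR1 (21.1% of all genes), none in iFGFR2 (2.88%) and Acta2 and Actg2 in iR2 (14.3%). Leaving out 1 array at a time gave 3 to 6 in iFGFR1, lowest without iFGFR1 replicate 1 or 4, 0 to 2 in iFGFR2, highest without Wnt1 replicate 3, and 0 to 2 in iR2, lowest without iR2 replicate 1. The share of all genes that passed was not counted for these omissions, so the changed counts have nothing to be set against.

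**Figure D3:**
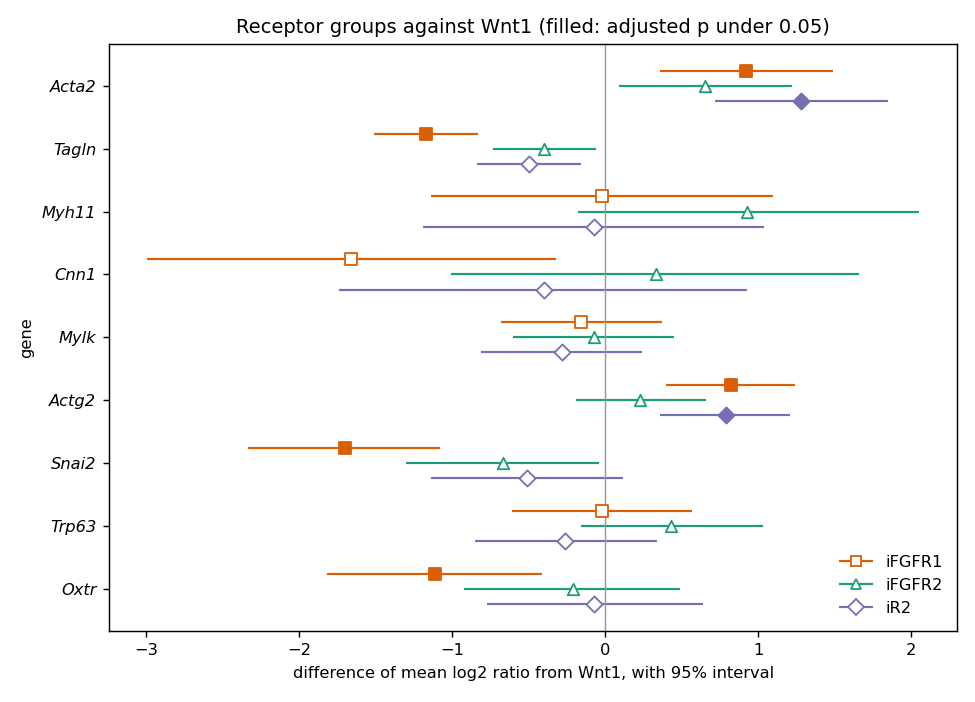
Difference of mean log2 ratio from Wnt1 (6 arrays) for each gene in iFGFR1, iFGFR2 and iR2 (4 arrays each), with the 95% interval from limma; filled marks passed an adjusted p of 0.05. The actin genes lie right of 0 and Tagln and Snai2 left of it, and no iFGFR2 mark is filled.

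Most other genes of the contractile apparatus did not pass in any group against Wnt1, which was true of all genes as well. Over all genes 15.4% passed in iFGFR1, 3.43% in iFGFR2 and 7.1% in iR2. These shares stand beside the lists below too. Of 29 measured genes on that list, 3 rose and 1 fell in iFGFR1, where 8.38% of all genes rose and 7.06% fell, with a median of 0.25 beside 0.02 over all genes. The myosin phosphatase subunit gene Ppp1r12a fell by 1.21 (SE 0.17), while Smtn (0.78, SE 0.18), a smoothelin, Ppp1r14a (0.77, SE 0.19), an inhibitor of the myosin phosphatase, and the adhesion gene Zyx (0.88, SE 0.27) rose. In iR2, 3 rose and 0 fell: the adhesion gene Vcl (1.08, SE 0.21), the caveolin gene Cav1 (1.48, SE 0.32) and Zyx (1.10, SE 0.27). In iFGFR2 Vcl rose (1.09, SE 0.21) and 0 fell. Ppp1r12a was higher than in iFGFR1 by 0.91 in iFGFR2 and 0.94 in iR2 (SE 0.19 each, adjusted p = 0.0125 and 0.00289).

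Of 11 genes of serum response factor and its partners, 2 fell and 0 rose in iFGFR1, where 7.06% of all genes fell and 8.38% rose, with a median of -0.44 beside 0.02 over all genes. Tgfb1i1, which encodes a coactivator at focal adhesions, fell by 1.25 (SE 0.24), and Hopx, a homeodomain protein that inhibits serum response factor, fell by 2.09 (SE 0.41). Myocd, the smooth muscle coactivator myocardin, fell in iR2 by 1.14 (SE 0.31, adjusted p = 0.0333) and differed between iR2 and iFGFR2 by -1.57 (SE 0.34, adjusted p = 0.0256). In iFGFR2 against Wnt1, 0 of 11 passed by limma, with a median of -0.31. Wwtr1, the Hippo pathway coactivator TAZ, was higher in iR2 than in iFGFR1 by 1.32 (SE 0.29).

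For the signalling path below the oxytocin receptor, 10 genes were measured. In iFGFR1, where 15.4% of all genes passed, the calcium channel gene Itpr3 (1.32, SE 0.28) and the calmodulin gene Calm2 (0.59, SE 0.18) rose, and Itpr2 fell by 0.72 (SE 0.16). In iR2 Calm2 (0.76, SE 0.18) and the G protein gene Gna11 (1.18, SE 0.30) rose. None of the 10 passed in iFGFR2.

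Some genes on a list of basal epithelial structure and adhesion, which also holds Notch ligand genes, fell in iFGFR1. Of 21 measured, 6 fell and 0 rose there, where 7.06% of all genes fell and 8.38% rose, with a median of -0.16 beside 0.02 over all genes. The Notch ligand genes Dll1 and Jag2 fell by 1.46 (SE 0.28) and 1.07 (SE 0.21), Krt14, a keratin of basal cells, fell by 1.68 (SE 0.33), and the P-cadherin gene Cdh3 fell by 1.33 (SE 0.27). In iFGFR2 Perp (-1.33, SE 0.36) fell and in iR2 0 of 21 passed by limma. Against iFGFR1, 6 were higher and 1 lower in iR2, where 11.7% of all genes passed and 4.81% were higher. Cdh3 (1.44, SE 0.30), Krt14 (1.69, SE 0.36) and Dll1 (1.23, SE 0.31) were higher and Krt17 lower (-1.54, SE 0.40). Krt17 was also lower in iFGFR2 than in iFGFR1 (-2.03, SE 0.40).

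Of 20 other basal and mesenchymal transition factors, 4 fell and 0 rose in iFGFR1, where 7.06% of all genes fell and 8.38% rose, with a median of -0.25 beside 0.02 over all genes. Id4, an inhibitor of helix-loop-helix factors found in basal mammary cells, fell by 3.01 (SE 0.38), Runx1 fell by 0.95 (SE 0.20), Irx4 fell by 1.06 (SE 0.30) and Hmga2 fell by 1.5 (SE 0.43). Id4 was higher than in iFGFR1 by 2.45 in iFGFR2 and by 2.88 in iR2 (SE 0.42 each, adjusted p = 0.00343 and 0.000273). In iR2 Cdh2 (-1.25, SE 0.36) and Twist1 (-0.98, SE 0.30) fell, and in iFGFR2 0 of 20 passed by limma, with a median of -0.16.

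Markers of some other cells are given beside these results, and those of fibroblasts and luminal epithelium differed between some groups. Over all genes 15.4% passed in iFGFR1 (8.38% higher, 7.06% lower), 3.43% in iFGFR2 and 7.1% in iR2 (3.91% higher). The mean of the 10 fibroblast markers ran from -2.78 to -1.32 in Wnt1 and from -3.75 to -2.97 in iFGFR1, where 5 fell and 1, Dpt, rose. It ran from -3.20 to -2.76 in iFGFR2, where none passed, and from -2.89 to -2.65 in iR2, where Fbln1 fell. The mean of the 10 luminal markers was 1.49 to 2.86 in Wnt1, 2.45 to 3.26 in iFGFR1, 2.17 to 2.67 in iFGFR2 and 2.67 to 2.75 in iR2, with 5, 1 and 2 risen and 0 fallen in the receptor groups. The 11 markers of vascular smooth muscle and pericytes overlapped in all groups (-0.96 to -0.59 in Wnt1, -1.32 to -0.44 in iFGFR1, -0.93 to -0.68 in iFGFR2 and -1.03 to -0.49 in iR2), and 1, 1 and 0 fell. The 1 was Pdgfrb in each case, which fell by 1.15 in iFGFR1 and by 1.19 in iFGFR2 (SE 0.28 each). The 8 skeletal muscle markers ran from -4.49 to -2.65 over all arrays, and their highest values, -2.66 and -2.65, were on iFGFR1 replicate 4 and iR2 replicate 1. The vascular mean was also highest on these arrays (-0.44 and -0.49). Actg2 had its highest value of all arrays, -0.03, on the former, and Acta2 its highest, -1.06, on the latter. Among the Wnt1 arrays the highest skeletal muscle mean, -3.46, was on replicate 6, where Acta2 was lowest (-3.26). The part of the cells marked by these lists in the values of the contractile and basal genes was not tested.

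**Figure D4:**
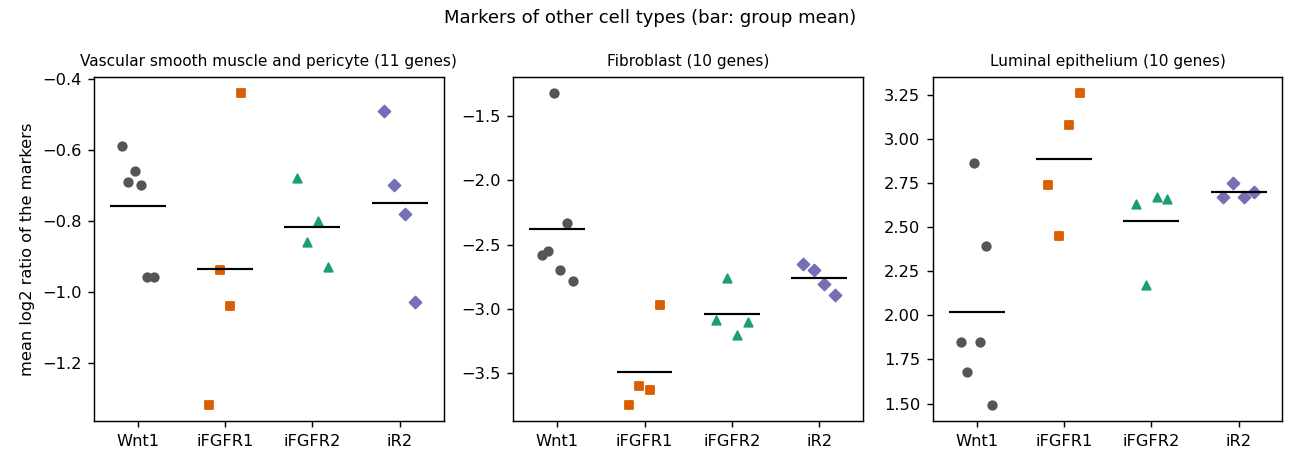
Mean log2 ratio of the markers of vascular smooth muscle and pericytes (11 genes), fibroblasts (10) and luminal epithelium (10) on each array, by group, with the group mean as a bar. The fibroblast mean is lower in iFGFR1 (-3.75 to -2.97) than in Wnt1 (-2.78 to -1.32), and the vascular mean overlaps in all groups.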

How the data were processed

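The authors deposited 1 table of ratios for 22575 features on 18 arrays, read here as log2 of tumour (Cy5) over reference (Cy3) from the dyes in the labels. The log base and direction are readings of the values, and every fold rests on base 2. How the arrays were scanned, corrected for background and normalized is not stated in the labels or files used. No cell was empty.

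Features took the platform's gene symbols (18658 had 1 symbol, 30 several and 3887 none), and those of 1 symbol were averaged to 16887 genes. All 18 arrays entered a single linear model by group, without covariates (R 4.3.3, limma 3.58.1, functions lmFit and eBayes). Adjustment was by Benjamini-Hochberg within each comparison, with 0.05 as the threshold, and the code was tested on simulated data. Correlations of pairs used 100000 permutations within groups. All 9 genes are named. From other lists up to 4 genes past the threshold per list and comparison may be named, by smallest p, and for each of the 9 the 3 genes of highest Pearson r. Members and lists were chosen with earlier results of these data known. Alternatives varied the scaling, array weights, variance prior, feature per gene, a filter on spread and the arrays fitted, added the title's number to the model, or left out single arrays.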

Additional observations from a re-analysis of the deposited data

Results flagged for a closer look

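Of 36 sets of a gene in a group, 4 had an array far from the others by Dixon's test, which chance gives in about 1 in 20 sets. Myh11 read -0.58 on Wnt1 replicate 3, with the next array at -3.23, and 0.06 on iFGFR2 replicate 1, with the next at -2.51. Cnn1 read 0.77 on iFGFR2 replicate 1, with the next at -2.78. Actg2 read -0.03 on iFGFR1 replicate 4, with the next at -0.69.

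Effects of the receptor groups differed from each other for 2 of the genes. Tagln was higher in iFGFR2 than in iFGFR1 by 0.78 (limma adjusted p = 0.025) and in iR2 than in iFGFR1 by 0.67 (0.0177). Snai2 was higher in iR2 than in iFGFR1 by 1.19 (0.0234).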

How the results depend on the processing

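No difference that passed turned its sign under the 28 alternatives, of which 18 left out 1 array each and 1, without both arrays of high Myh11 and Cnn1, was chosen after seeing the data. Tagln, Actg2 and Snai2 in iFGFR1 and Tagln in the mean of the receptor groups passed under all 28. No paired analysis was possible because the replicate numbers follow accession order and pair no arrays. The number of arrays limits the precision, and the causes of the changes below were not tested.

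The count of genes past the threshold in iFGFR2 against iFGFR1 was 0 with each array scaled to 1 median absolute deviation, with array weights, with the genes of low spread left out and with only the arrays compared. It was 2 without both arrays of high Myh11 and Cnn1, where the count in iFGFR2 against Wnt1 was 1 (Myh11, whose own values chose the arrays, so that this is no test of it). In iR2 against iFGFR2 it was 1 with array weights (Actg2). In iR2 against iFGFR1 it was 1 with the genes of low spread left out and 0 with the title number. The title number also left 0 in iR2 against Wnt1, 1 in the mean of the receptor groups and 2 in the F test. Leaving out 1 array at a time gave 3 to 6 in iFGFR1, 0 to 2 in iFGFR2, 0 to 2 in iR2, 3 to 4 in the mean and 4 to 5 in the F test. For the receptor groups against each other it gave 0 to 2 (iFGFR2 against iFGFR1), 0 to 3 (iR2 against iFGFR1) and 0 to 0 (iR2 against iFGFR2). Without both arrays of high Myh11 and Cnn1, 3.22% of all genes passed in iFGFR2 against iFGFR1 and 2.88% in iFGFR2 against Wnt1. For the other alternatives the share of all genes was not counted.

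The differences that turned in sign had all missed the threshold. With array weights they were Actg2 0.11 (iR2 against iFGFR1), Cnn1 -0.01 (iFGFR2 against Wnt1), and Myh11 0.32 in iFGFR1 and 0.23 in iR2. With each array scaled they were Acta2 -0.14 (iR2 against iFGFR1), Myh11 0.44 in iFGFR1, Oxtr 0.11 and Trp63 0.01 in iR2, and Trp63 0.43 (iR2 against iFGFR1) and -0.03 (mean). Quantile normalization gave Myh11 0.3 in iR2 and 0.39 (iR2 against iFGFR1), and Trp63 0 in iFGFR1. Without both arrays of high Myh11 and Cnn1, Cnn1 was -0.21 in iFGFR2, 0.03 in iR2 and 0.23 (iR2 against iFGFR2), Myh11 0.45 in iFGFR1 and 0.4 in iR2, Mylk -0.07 (iFGFR2 against iFGFR1), Snai2 -0.12 (iR2 against iFGFR2) and Trp63 0.02 in iFGFR1.

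The title numbers of iR2 lie above those of every other group, with no overlap. The model can thus barely separate number from group in the iR2 comparisons, and sign turns there say little. With the title number, Mylk was 0.29 in iFGFR1, 0.28 in iFGFR2, 0.99 in iR2 and 0.52 in the mean. Between receptor groups Mylk was -0.01 (iFGFR2 against iFGFR1), 0.7 (iR2 against iFGFR1) and 0.71 (iR2 against iFGFR2). Cnn1 was 1.25 in iR2, 0.46 (iR2 against iFGFR2) and 0.32 (mean), and Myh11 0.43 in iFGFR1, 1.2 in iR2 and 0.77 (iR2 against iFGFR1). Actg2 was 0 (iR2 against iFGFR1), Oxtr -0.4 and Snai2 -0.14 (iR2 against iFGFR2), and Trp63 -0.1 (mean).

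Leaving out 1 array at a time, differences from Wnt1 that changed sign ran as follows. In iFGFR1, Myh11 ran from -0.16 to 0.45, Mylk from -0.44 to 0.04 and Trp63 from -0.2 to 0.22. In iFGFR2, Cnn1 ran from -0.63 to 0.76, Mylk from -0.22 to 0.06 and Oxtr from -0.42 to 0.03. In iR2, Cnn1 ran from -0.59 to 0.03, Myh11 from -0.21 to 0.4 and Oxtr from -0.15 to 0.05, and in the mean Trp63 ran from -0.05 to 0.28. Between receptor groups, Actg2 (-0.12 to 0.14), Myh11 (-0.15 to 0.04) and Mylk (-0.33 to 0.15) did so in iR2 against iFGFR1, and Mylk (-0.11 to 0.36) in iFGFR2 against iFGFR1. In iR2 against iFGFR2 they were Cnn1 (-1.11 to 0.23), Oxtr (-0.1 to 0.35), Snai2 (-0.12 to 0.48) and Tagln (-0.2 to 0.01).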
